A study of Mus musculus with 12 samples.

Results

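The prostaglandin and leukotriene pathway was followed through 10 genes in mouse bone marrow-derived macrophages (BMDMs): Pla2g4a, Ptgs1, Ptgs2, Ptges, Tbxas1, Alox5, Alox5ap, Lta4h, Ptger2 and Ptger4. They were taken by symbol from a table of 48526 genes, with earlier results of these data known. All 10 were found and passed the filter on low counts. Total RNA was sequenced in 12 libraries, 3 for each of 4 groups. BMDMs from homozygous HSS9 KO mice, which lack an enhancer upstream of Tnf that the study calls TNF-9, were compared with WT BMDMs (HSS9+/+, littermate controls per the labels) after 6 hr of lipopolysaccharide (LPS), the bacterial cell wall component that activates macrophages through Toll-like receptor signalling, or after 6 hr of PBS (UT). According to the methods the mice were males of 7 to 10 weeks. C57BL/6 mice were purchased and KO mice were kept as homozygous pairs, and the methods name no strain for the KO mice. The sources therefore differ on whether both genotypes shared litters. Bone marrow cells were grown for 6 days in medium with L929-conditioned supernatant before treatment, and the labels give each of the 3 replicates of a group a batch number of its own. No transgene, Cre or other agent is named for any of the groups.

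Arachidonic acid is cut from membrane phospholipids by cytosolic phospholipase A2, encoded by Pla2g4a, and then enters the cyclooxygenase or the lipoxygenase arm. In the cyclooxygenase arm, the enzymes of Ptgs1 (COX-1, usually constitutive) and Ptgs2 (COX-2, inducible) make prostaglandin H2, which the microsomal synthase of Ptges turns into prostaglandin E2 and the synthase of Tbxas1 into thromboxane. In the lipoxygenase arm, 5-lipoxygenase (Alox5) works with its activating protein FLAP (Alox5ap) to make leukotriene A4, and the hydrolase of Lta4h turns it into leukotriene B4, a chemoattractant. Prostaglandin E2 acts on macrophages largely through the EP2 and EP4 receptors of Ptger2 and Ptger4, which signal through cyclic AMP.

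Library totals ran from 26154533 to 36423921 counts, and levels are given as CPM, the count of a gene relative to its library's size after TMM scaling, which sets libraries to a common scale from the bulk of their genes. The macrophage markers summed to between 27939.9 and 34417 CPM in every library, with all 8 of 8 detected, so the labelled cell type was present. This sum was also higher in KO, at 28908 to 29983 CPM in WT UT and 33310.1 to 34417 in KO UT, and at 27939.9 to 29482 in WT LPS and 30233 to 32099 in KO LPS. Most of it was Lyz2, with means of 23453 CPM in WT UT, 27341 in KO UT, 18507 in WT LPS and 20290 in KO LPS. Csf1r (2448 in WT and 2242 in KO) and Fcgr1 (267 and 264) were not higher in KO UT. Cd14 (3420.4 and 3257) was not higher in KO LPS, while the means of the other markers were higher in KO. Tnf, which lies downstream of the deleted enhancer, was counted at 826 to 938 CPM in WT LPS and at 422 to 449.5 CPM in KO LPS libraries, a log2 fold change of -1.04 (SE 0.0604, adjusted p = 2.76e-10). Several library properties moved with the groups. The share of counts on structured small RNAs (Rn7sk, 7SL copies, Rmrp and Rpph1) was 2.92 to 3.16% in WT UT, 6.51 to 7.7% in KO UT and 3.15 to 3.29% in KO LPS, and in WT LPS it was 3.93, 5.23 and 6.72% in replicates 1, 2 and 3. Neutrophil markers summed to 20.5 to 22 CPM in WT UT against 42.6 to 48.1 in KO UT and to 50.5 to 79.6 in WT LPS against 67.3 to 76.8 in KO LPS. 7 of these 8 markers had counts, S100a8 and S100a9 carried most of the sum, and Ly6g was at 0 in all libraries. All 5 platelet markers had counts, with sums of 5.04 to 8.12 CPM in WT UT, 10.7 to 11.1 in KO UT, 6.15 to 7.27 in WT LPS and 9.66 to 9.99 in KO LPS. Mast cell and basophil markers summed to at most 1.59 CPM in UT and to between 124 and 147 CPM after LPS, nearly all of it Hdc, with Tpsb2 at 0. The stromal sum was 4.82 to 6.82 CPM in UT, 21.9 to 24.1 in WT LPS and 26.9 to 28.9 in KO LPS, where most of it was Pdgfrb. After LPS Pdgfrb differed little between KO and WT (-0.0086, adjusted p = 0.968), whereas Col1a1, Col1a2, Col3a1 and Dcn were higher in KO (1.4, 1.19, 1.49 and 1.58, adjusted p from 0.00655 to 0.029), at means of at most 2.43 CPM. The eosinophil, B cell, T cell and dendritic cell sums stayed at or below 2.6 CPM. The part of these properties in the results was not tested, except that the small RNA share was also entered in the fit as a covariate. In bulk RNA, fewer cells that express a gene cannot be told apart from less of its RNA per cell.

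In untreated macrophages the transcript of the FLAP gene stood far above the others. Per kilobase of exon, the scale on which levels of different genes can be compared, Alox5ap had a mean level of 221 ± 2.94 CPM per kb (SD, n = 3) in WT UT and 260.5 ± 5.28 in KO UT. Tbxas1 followed at 12.4 and 13.9, Lta4h at 6.6 and 6.8 and Ptgs1 at 5.73 and 4.39 CPM per kb. Ptges was the lowest of the 10 in both, at 0.818 ± 0.0853 and 0.61 ± 0.139 CPM per kb. Between these, WT UT libraries had Alox5 (4.16) and Ptgs2 (3.32) apart from each other, and Ptger2, Ptger4 and Pla2g4a (2.06, 1.94 and 1.88) with neighbouring values that overlapped between libraries. In KO UT the values of Alox5 (2.77) and Ptgs2 (2.48) overlapped, followed by Ptger4 (2.18), Pla2g4a (1.75) and Ptger2 (1.57).

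After 6 hr of LPS the order was different. Ptgs2 led in WT with a mean level of 476 ± 63.1 CPM per kb (SD, n = 3), ahead of Ptges at 318 ± 4.69, whereas in KO Ptges led with 452 ± 4.51 and Ptgs2 was next at 365 ± 11.4. Alox5ap was the third in both genotypes, at 129 ± 13.3 and 114 ± 5.37, and Pla2g4a the fourth, at 47.9 and 54.4 CPM per kb. Tbxas1 (9.51 and 10.9), Ptger4 (4.95 and 6.85), Ptger2 (3.43 and 3.24) and Lta4h (2.77 and 2.54) followed in the same order in WT and KO. Ptgs1 (1.21 and 1.07) and Alox5 (0.664 and 0.393) were at the bottom, with overlapping values in WT. With the longest transcript as the length, 12 of these ranks over the 4 groups changed, while the first 4 ranks and the last were the same in all 4 groups.

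**Figure D1:**
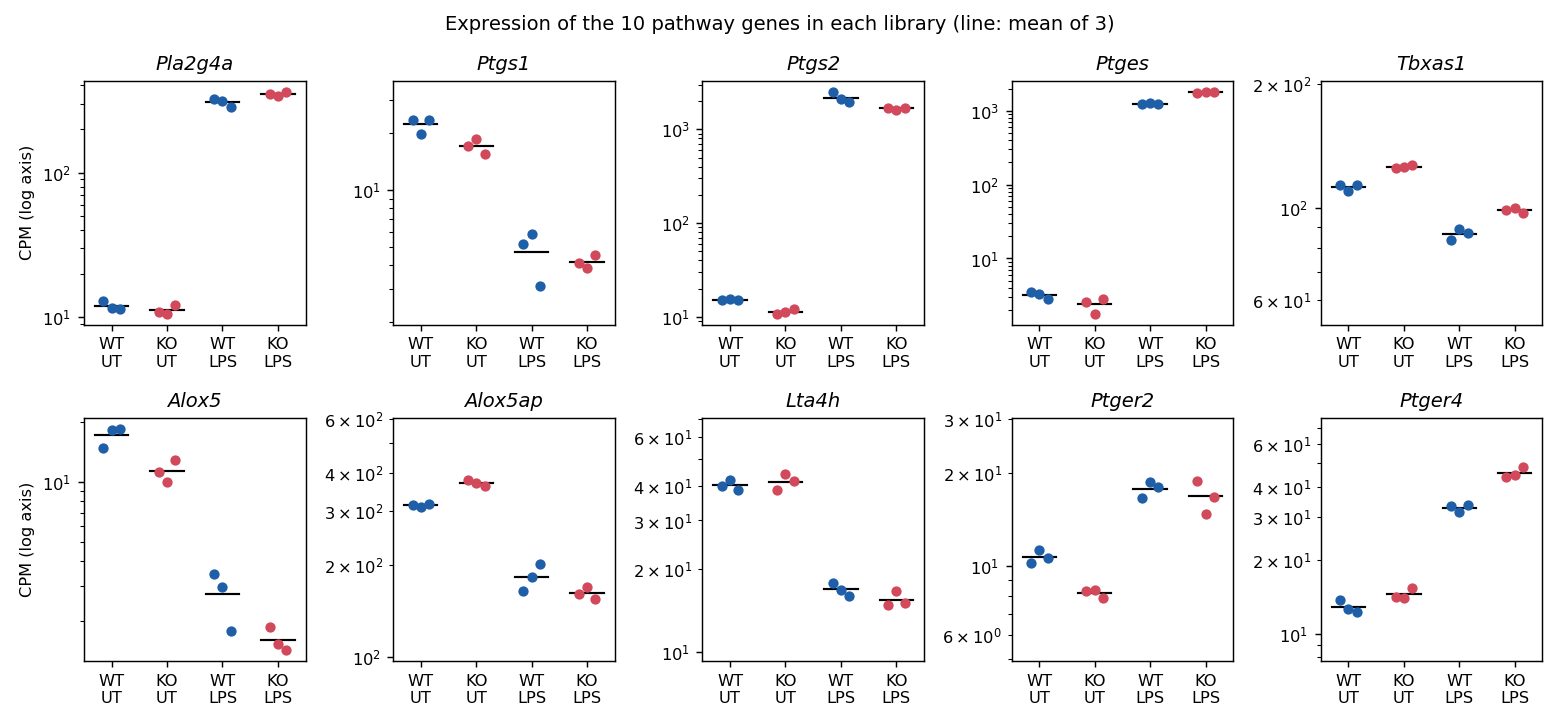
Expression of the 10 genes in CPM on a log axis, a panel for each gene, with a point for each of the 3 libraries of a group (UT or LPS, WT in blue and KO in red) and a line at their mean. Ptgs2, Ptges and Pla2g4a are higher after LPS in every library, with group means 25.4 to 741 times the UT mean, and Alox5 and Ptgs1 are lower after LPS in every library.

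The first question was how LPS changed the pathway in each genotype. LPS raised the genes for the phospholipase, COX-2, the prostaglandin E synthase and the EP2 and EP4 receptors and lowered COX-1, the thromboxane synthase and the 3 members of the leukotriene arm: at an adjusted p below 0.05 (edgeR's quasi-likelihood test, Benjamini-Hochberg over the 15523 genes tested), Pla2g4a, Ptgs2, Ptges, Ptger2 and Ptger4 rose and Ptgs1, Tbxas1, Alox5, Alox5ap and Lta4h fell, in WT and in KO. That is 5 higher and 5 lower of 10 in each genotype, where of all genes tested 38.0% were higher and 35.3% lower in WT, and 35.1% were higher and 37.7% lower in KO. With an absolute log2 fold change above 1 as well, the criteria of the study, 7 of the 10 passed in WT and 9 in KO, against 37.8% and 37.0% of all genes. The median log2 fold change of the 10 was 0.18 in WT and 0.35 in KO, beside 0.047 and -0.055 over all genes. Each of the 10 moved in the same direction in 3 of 3 batches in both genotypes.

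The largest changes were at Ptges, Ptgs2 and Pla2g4a on one side and Alox5 and Ptgs1 on the other, each by more than 2 log2 units in both genotypes. Their promoter windows, 300 bases from 250 before to 50 after the RefSeq start on GRCm38.p6, are shown 5′ to 3′ on the gene's strand so that the sequence before each induced or repressed gene can be seen beside its response. Capitals mark matches to the motifs searched: TATAAA, the NF-kappaB consensus, the cyclic AMP element TGACGTCA, AP-1 TGANTCA, C/EBP TTGCNNAA, the PU.1 core GAGGAA and a paired IRF motif, on both strands.
Ptgs2 promoter: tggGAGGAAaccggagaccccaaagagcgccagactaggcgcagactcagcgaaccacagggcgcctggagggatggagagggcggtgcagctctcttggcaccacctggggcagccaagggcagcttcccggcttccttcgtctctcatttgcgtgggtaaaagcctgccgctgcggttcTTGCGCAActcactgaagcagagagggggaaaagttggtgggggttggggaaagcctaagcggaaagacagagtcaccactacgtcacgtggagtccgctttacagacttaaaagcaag
Ptges promoter: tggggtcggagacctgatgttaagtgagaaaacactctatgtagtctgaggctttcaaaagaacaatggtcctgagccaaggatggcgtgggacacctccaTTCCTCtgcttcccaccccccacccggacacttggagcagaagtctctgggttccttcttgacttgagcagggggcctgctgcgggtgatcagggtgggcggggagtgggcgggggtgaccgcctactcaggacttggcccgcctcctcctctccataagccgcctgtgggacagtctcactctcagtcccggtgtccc
Pla2g4a promoter: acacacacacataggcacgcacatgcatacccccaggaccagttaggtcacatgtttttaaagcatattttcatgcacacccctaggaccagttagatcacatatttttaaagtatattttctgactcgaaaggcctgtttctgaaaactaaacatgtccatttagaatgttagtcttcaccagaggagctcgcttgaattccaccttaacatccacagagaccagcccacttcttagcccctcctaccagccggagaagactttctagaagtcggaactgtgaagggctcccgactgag
Ptgs1 promoter: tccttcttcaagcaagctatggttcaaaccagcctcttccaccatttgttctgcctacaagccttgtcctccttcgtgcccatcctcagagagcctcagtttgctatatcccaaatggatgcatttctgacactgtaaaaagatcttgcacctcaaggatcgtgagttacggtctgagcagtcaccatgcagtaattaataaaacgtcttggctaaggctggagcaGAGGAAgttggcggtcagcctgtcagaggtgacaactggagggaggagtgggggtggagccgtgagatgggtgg
Alox5 promoter: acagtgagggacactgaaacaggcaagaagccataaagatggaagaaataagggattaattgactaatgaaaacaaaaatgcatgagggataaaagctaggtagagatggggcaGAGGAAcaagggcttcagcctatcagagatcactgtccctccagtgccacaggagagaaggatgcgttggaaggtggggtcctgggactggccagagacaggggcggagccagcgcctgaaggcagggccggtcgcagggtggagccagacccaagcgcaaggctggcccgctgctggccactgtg
The windows lie at chr1:150099781-150100080 (plus strand), chr2:30903248-30903547 (minus), chr1:149961241-149961540 (minus), chr2:36230176-36230475 (plus) and chr6:116461129-116461428 (minus). The Ptgs2 window held the palindrome TTGCGCAA, a match to C/EBP, at -69 to -62 from the start, a motif found in 10.8% of the 32851 promoter windows of the table. The PU.1 core, found in 28.3% of windows, was present in 4 of the 5: at -247 to -242 in Ptgs2, at -149 to -144 on the other strand in Ptges, at -24 to -19 in Ptgs1 and at -136 to -131 in Alox5. Pla2g4a held none of the motifs, and no window of the 5 held the TATAAA, NF-kappaB, TGACGTCA, AP-1 or IRF letters, which were found in 13.6, 4.51, 1.79, 7.81 and 3.44% of all windows. Only whole motifs were searched, so a part of one is not marked, such as the CGTCA of TGACGTCA in the Ptgs2 window. A window without capitals for a motif may therefore still hold a shorter form of it. The RefSeq start of Ptges lies downstream of the outermost GENCODE start.

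Pla2g4a (chromosome 1, 149829618 to 149961290, minus strand, GRCm38), the cytosolic phospholipase A2 at the head of the pathway, was at 13, 11.6 and 11.5 CPM in replicates 1, 2 and 3 of WT UT and at 321, 311 and 286 CPM in WT LPS. In KO it was at 10.8, 10.6 and 12.1 CPM in UT and at 347, 336 and 359.9 CPM after LPS. UT and LPS libraries did not come near each other, and the mean was 25.4-fold higher after LPS in WT and 31.1-fold higher in KO (log2 fold change 4.67, SE 0.0748, adjusted p = 1.65e-22, and 4.95, SE 0.0765, adjusted p = 8.15e-23). Pla2g4a and Ptgs2 are neighbours on chromosome 1, 139 kb apart and on opposite strands.

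Ptgs2 (chromosome 1, 150100031 to 150108227, plus strand), which encodes COX-2, was at 15, 15.4 and 15.2 CPM in WT UT and at 10.8, 11.2 and 12.1 CPM in KO UT. After LPS it reached 2501, 2097 and 1942 CPM in WT and 1700.2, 1614 and 1707 CPM in KO. The induction was 143-fold in WT and 147-fold in KO (log2 fold change 7.16, SE 0.0909, adjusted p = 4.43e-24, and 7.2, SE 0.0922, adjusted p = 4.38e-24). Within WT LPS the 3 libraries spanned a wider range than within KO LPS, in the inverse order of their small RNA share.

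Ptgs1 (chromosome 2, 36230426 to 36252272, plus strand), which encodes COX-1, went the other way. Its level was 23.5, 19.7 and 23.6 CPM in WT UT and 5.18, 5.84 and 3.11 CPM in WT LPS, and 17.1, 18.6 and 15.5 CPM in KO UT and 4.1, 3.87 and 4.54 CPM in KO LPS. Every LPS library was below every UT library, by 4.73-fold in the mean of WT and 4.09-fold in that of KO (log2 fold change -2.23, SE 0.144, adjusted p = 5.82e-12, and -2.03, SE 0.146, adjusted p = 4.14e-11). The ratio of Ptgs2 to Ptgs1 per kilobase, which is taken within a library and does not depend on the scaling, lay between 0.511 and 0.665 in the 6 UT libraries and between 305 and 529 in the 6 LPS libraries.

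Ptges (chromosome 2, 30889471 to 30929863, minus strand), the inducible prostaglandin E synthase, had the largest change of the 10. It was at 3.51, 3.29 and 2.85 CPM in WT UT and at 1239.8, 1272 and 1241 CPM in WT LPS. In KO it started from 2.54, 1.79 and 2.86 CPM and reached 1759.8, 1795 and 1779 CPM, above every WT LPS library. The increase was 389-fold in WT and 741-fold in KO (log2 fold change 8.61, SE 0.0992, adjusted p = 1.03e-24, and 9.52, SE 0.105, adjusted p = 4.87e-25). Tbxas1 (chromosome 6, 38875404 to 39084585, plus strand), the thromboxane synthase that competes for the same substrate, fell a little, from 114, 109.8 and 114 to 83.5, 89.1 and 86.9 CPM in WT and from 125, 126 and 127 to 99.2, 99.9 and 97.4 CPM in KO (log2 fold change -0.38, SE 0.051, adjusted p = 8.15e-07, and -0.35, SE 0.0507, adjusted p = 2.37e-06). With the small RNA share as a covariate the KO change of Tbxas1 was -0.27 (adjusted p = 0.0537).

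The leukotriene arm fell at each of its 3 members. Alox5 (chromosome 6, 116410077 to 116461178, minus strand), the 5-lipoxygenase, went from 14.8, 18.1 and 18.4 CPM in WT UT to 3.43, 2.96 and 1.79 CPM in WT LPS, and from 11.2, 9.99 and 12.9 CPM in KO UT to 1.88, 1.54 and 1.43 CPM in KO LPS. This was 6.27-fold lower in WT and 7.04-fold lower in KO (log2 fold change -2.63, SE 0.164, adjusted p = 3.4e-12, and -2.82, SE 0.181, adjusted p = 5.31e-12). With the small RNA share as a covariate these log2 fold changes were -1.76 in WT and -4.2 in KO. Lta4h (chromosome 10, 93453411 to 93484875, plus strand), the leukotriene A4 hydrolase, went from 40, 42 and 38.8 to 17.8, 16.8 and 16 CPM in WT and from 38.7, 44.2 and 41.6 to 14.8, 16.6 and 15.1 CPM in KO (log2 fold change -1.25, SE 0.0737, adjusted p = 1.21e-12, and -1.42, SE 0.0738, adjusted p = 1.37e-13). Alox5ap (chromosome 5, 149264767 to 149288153, plus strand) fell less and stayed well expressed. Its level went from 315, 309 and 316 to 164, 183 and 202 CPM in WT, and from 378, 369.6 and 363 to 161, 170.1 and 155 CPM in KO (log2 fold change -0.78, SE 0.0639, adjusted p = 3.95e-10, and -1.19, SE 0.0643, adjusted p = 2.69e-13). Neutrophils also express this arm, and their markers moved both ways with LPS. In WT the mean of S100a8 went from 7.32 to 52.7 CPM and that of Camp from 0.206 to 4.02, while S100a9 went from 11 to 6.08, Ngp from 0.587 to 0.192 and Ltf from 1.82 to 0.206, and the part of neutrophil RNA in the result was not tested.

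The EP2 and EP4 receptor genes rose. Ptger4 (chromosome 15, 5206661 to 5244187, minus strand) was at 13.7, 12.6 and 12.3 CPM in WT UT and at 33.4, 31.5 and 33.8 CPM in WT LPS, and in KO at 14.1, 14 and 15.4 CPM in UT and at 43.9, 44.6 and 48.1 CPM after LPS, which is 2.55-fold higher in WT and 3.14-fold higher in KO (log2 fold change 1.35, SE 0.0724, adjusted p = 2.2e-13, and 1.65, SE 0.0715, adjusted p = 5.3e-15). Ptger2 (chromosome 14, 44988195 to 45003820, plus strand) was at 10.2, 11.3 and 10.6 CPM in WT UT, 16.6, 18.7 and 18.1 CPM in WT LPS, 8.3, 8.34 and 7.86 CPM in KO UT and 18.9, 14.8 and 16.8 CPM in KO LPS, 1.67-fold and 2.06-fold higher after LPS (log2 fold change 0.73, SE 0.0943, adjusted p = 4.51e-07, and 1.04, SE 0.0975, adjusted p = 3.32e-09). Exons of Ptger4 overlap 82 bases of Ttc33 (361 to 1216 counts per library) and 1015 bases of the pseudogene Gm15937 (8 to 38 counts) on the other strand, and whether reads were counted by strand is not given in the sources used here. The overlaps of Ptgs1, Alox5ap, Tbxas1 and Ptger2 with antisense or other short genes were at most 246 bases to a gene, and where those genes were in the table they had at most 47 counts in any library.

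**Figure D2:**
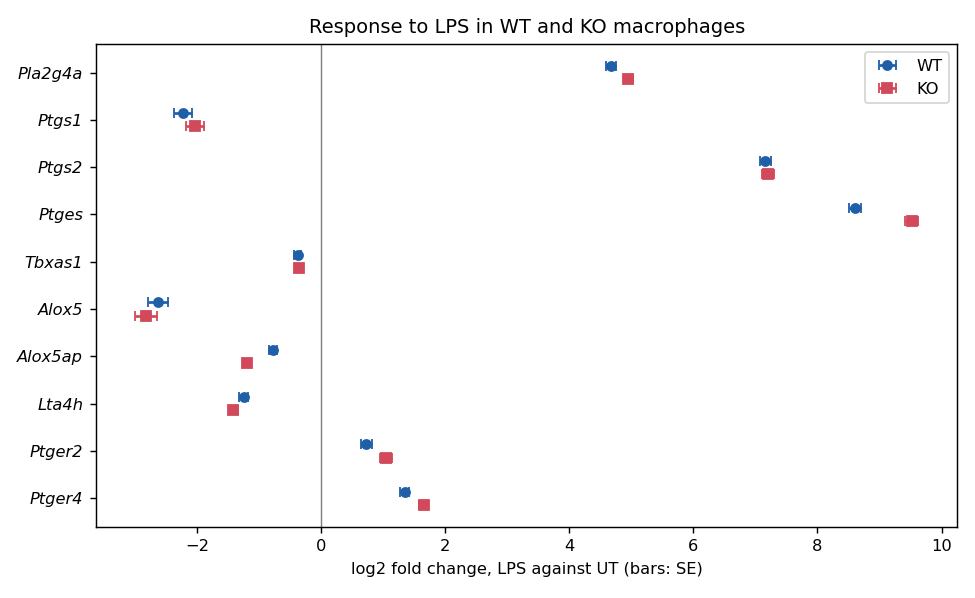
Log2 fold change of LPS against UT for each of the 10 genes on the horizontal axis, with circles for WT, squares for KO and bars of 1 SE. The same 5 genes lie above 0 and the same 5 below 0 in both genotypes, and Ptges is the farthest from 0, at 8.61 in WT and 9.52 in KO.

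Other genes of the pathway were described from 6 lists with 67 genes, of which 44 passed the filter on low counts. In WT, 17 of the 44 rose and 19 fell after LPS, and in KO 16 rose and 21 fell, with 25 and 30 past both criteria. Over all genes 38.0% were higher and 35.3% lower in WT, 35.1% higher and 37.7% lower in KO, and 37.8% and 37.0% past both criteria. The median log2 fold changes of the 44 were -0.28 and -0.43. Of the phospholipases and genes that handle arachidonate in membranes, 18 of 25 were tested, and 9 rose and 7 fell in WT (8 and 7 in KO). The acyl-CoA synthetases Acsl1 (log2 fold change 4.34 in WT and 4.47 in KO), Acsl5 (1.92 and 2.16) and Acsl4 (1.33 and 1.61) rose, while Acsl3 fell (-2.65 and -2.76). Acsl4, which favours arachidonate, and the lysophospholipid acyltransferase Lpcat2 (2.11 and 2.15) are known for returning fatty acids to phospholipids. Of the phospholipases, Pla2g16 (3.91 and 3.3), Pla2g4c (1.48 and 3.26) and Pla2g7 (1.05 and 1.24), which degrades platelet-activating factor, rose, and lysosomal Pla2g15 fell (-2.73 and -2.55). The secreted Pla2g2e had 11 or more counts in each WT UT library and at most 1 in WT LPS, and in KO it went from 8 or more counts to 0 in all 3 libraries, at least 4.54-fold lower against a floor of 3 counts per library. The endocannabinoid enzymes Dagla (-3.07 and -2.58), Daglb (-2.68 and -2.73) and Mgll (-1.71 and -1.92), which can release arachidonate through 2-arachidonoylglycerol, fell.

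Among the other prostanoid synthases 2 rose and 3 of 6 fell in WT, and 2 rose and 4 fell in KO, where over all genes 38.0% rose and 35.3% fell in WT and 35.1% and 37.7% in KO. Hpgds, the haematopoietic prostaglandin D synthase, went from a mean of 258 to 75.9 CPM in WT and from 263 to 73.5 CPM in KO (log2 fold change -1.76 and -1.84). Cbr1 (-1.7 and -2.2) and Fam213b (-1.22 and -1.68), both able to make F-type prostaglandins, also fell, and the cytosolic Ptges3, also a chaperone cofactor, rose by 0.86 in WT and 1.04 in KO. For export and breakdown, 1 of 4 rose and 3 fell in each genotype. Abcc4, a prostaglandin exporter, went from a mean of 25.3 to 134 CPM in WT and from 24.4 to 131 CPM in KO (2.41 and 2.43). Hpgd, the dehydrogenase that inactivates prostaglandin E2, went from 56.6 to 3.98 CPM in WT and from 48.8 to 2.73 CPM in KO (-3.83 and -4.15), and Ptgr2, which acts after it, also fell (-1.64 and -1.56). Of the prostanoid receptors other than EP2 and EP4, 3 of 7 were tested: the EP3 receptor Ptger3 fell from a mean of 11.4 to 0.412 CPM in WT and from 6.44 to 0.386 CPM in KO (-4.7 and -4.04), and the prostacyclin receptor Ptgir rose (0.92 and 1.5).

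In the other lipoxygenase and leukotriene enzymes 1 of 9 rose and 5 fell in WT, and 1 rose and 6 fell in KO, beside 38.0% higher and 35.3% lower over all genes in WT and 35.1% and 37.7% in KO. Ltc4s, the leukotriene C4 synthase, was low in UT (means of 1.94 and 2.53 CPM) and lower after LPS (0.381 and 0.341 CPM), with log2 fold changes of -2.33 in WT and -2.89 in KO. Ggt5 (-1.44 and -2.64), which trims leukotriene C4, the leukotriene B4 hydroxylase Cyp4f18 (-1.33 and -1.23), the 5-lipoxygenase-binding protein Cotl1 (-0.99 and -1.05) and Mgst3 (-0.35 and -1.28) fell in both genotypes. Of the leukotriene and lipoxin receptors 3 of the 4 tested rose in each genotype, and Ltb4r1, a leukotriene B4 receptor, did not pass (-0.54 and -0.61). Fpr2, a formyl peptide receptor that also binds lipoxin A4, went from a mean of 2.33 to 336 CPM in WT and from 1.88 to 423 CPM in KO (7.17 and 7.81), and the cysteinyl leukotriene receptors Cysltr2 (1.59 and 2.13) and Cysltr1 (0.71 and 1.04) also rose.

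**Figure D3:**
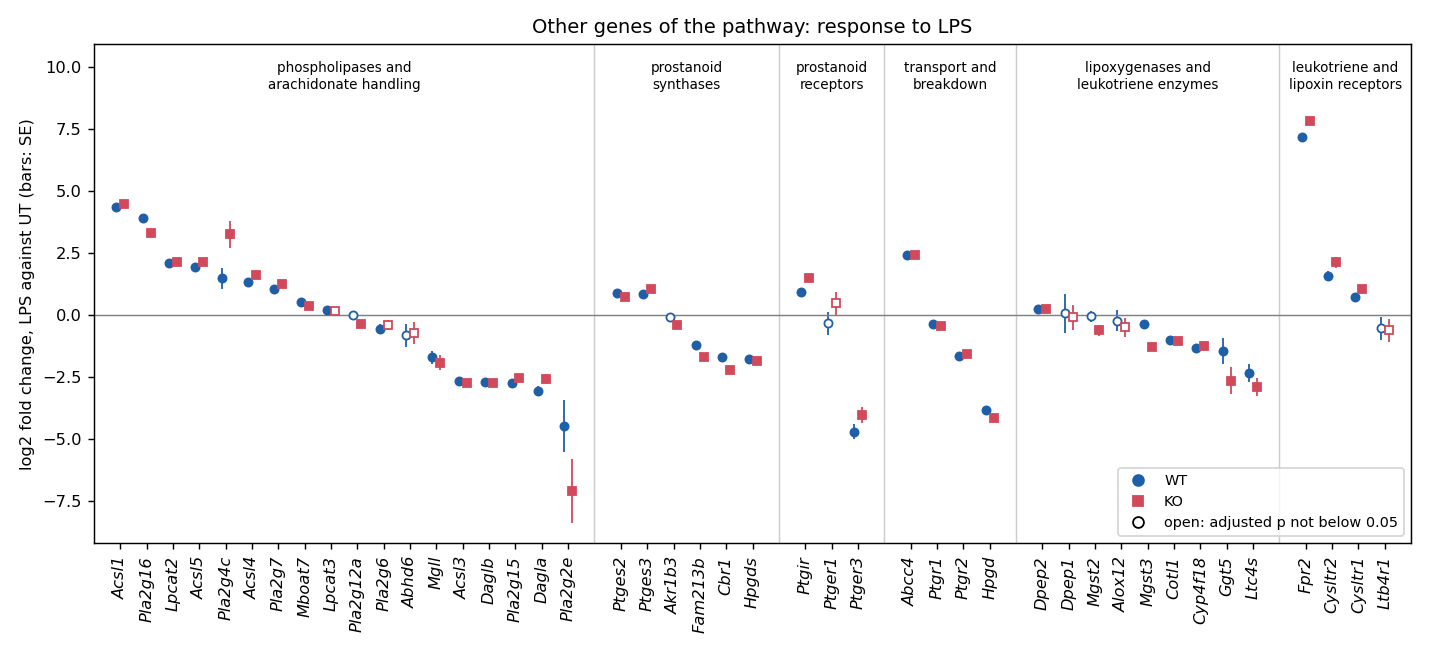
Log2 fold change of LPS against UT for the 44 other pathway genes that were tested, in 6 lists separated by vertical lines and ordered within a list by the WT value, with circles for WT, squares for KO, bars of 1 SE and open symbols where the adjusted p was not below 0.05. Fpr2 and Acsl1 stand highest among the genes that rose and Hpgd, Ptger3 and Pla2g2e lowest among those that fell.

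The second question was whether loss of the enhancer changed the pathway after LPS. In KO LPS macrophages Ptges, Ptger4 and Tbxas1 were higher and Ptgs2 and Alox5 lower than in WT LPS, 3 higher and 2 lower of 10, where 7.78% of all genes were higher and 6.54% lower. None of the 10 differed by more than 1 log2 unit, so by edgeR 0 passed both criteria at any p and 0 did by DESeq2, against 1.25% of all genes. At an unadjusted p below 0.05 there were 7 of the 10. The share of all genes at that threshold was not counted, so this number has nothing to be set against. The median log2 fold change of the 10 was -0.1, beside -0.0075 over all genes.

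Ptges was 1.42-fold higher in KO LPS (log2 fold change 0.51, SE 0.0671, adjusted p = 3.02e-05), with 0.51, 0.50 and 0.52 in batches 1, 2 and 3, and all 3 KO libraries lay above all 3 WT libraries. Ptger4 was 1.38-fold higher (0.47, SE 0.069, adjusted p = 0.000104, and 0.39, 0.50 and 0.51 by batch), again without overlap. Ptgs2 was lower, at 0.768 of the WT mean (-0.38, SE 0.0681, adjusted p = 0.000717, and -0.56, -0.38 and -0.19 by batch), with the highest KO library at 1707 and the lowest WT library at 1942 CPM. These 3 differences kept their direction and an adjusted p below 0.05 in all 22 alternative settings. Over these, Ptges ranged from 0.47 to 0.54, Ptger4 from 0.43 to 0.5 and Ptgs2 from -0.7, with the small RNA share as a covariate, to -0.27. That share did not overlap between WT LPS (3.93 to 6.72%) and KO LPS (3.15 to 3.29%). It and the genotype therefore cannot be told apart within the LPS libraries, and the covariate fit does not decide between them.

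Tbxas1 was 1.14-fold higher (0.19, SE 0.0515, adjusted p = 0.0157, and 0.25, 0.17 and 0.16 by batch). Its adjusted p was 0.0531 without KO LPS replicate 1, 0.0539 without KO LPS replicate 2 and 0.0691 with only the LPS groups in the fit. Alox5 was at 0.592 of the WT mean (-0.78, SE 0.223, adjusted p = 0.0238, and -0.87, -0.94 and -0.32 by batch), at levels where the lowest WT library, at 1.79 CPM, lay within the KO range of 1.43 to 1.88 CPM. It did not pass without WT LPS replicate 1 (-0.57, adjusted p = 0.1), WT LPS replicate 2 (adjusted p = 0.0821), KO LPS replicate 2 (0.0715) or KO LPS replicate 3 (0.0942), nor with only the LPS groups in the fit (0.0688), and the small RNA covariate moved it to -1.51. Pla2g4a (0.18, adjusted p = 0.0517) missed the threshold although its KO values of 336 CPM and more lay above the WT values of 321 CPM and less, and passed it with DESeq2 (adjusted p = 0.018) with RLE scaling (0.0414), with no filter on low counts (0.0174), and without WT LPS replicate 1 (0.0106) or KO UT replicate 3 (0.0432). Alox5ap (-0.18, adjusted p = 0.0734), Ptgs1 (-0.19, 0.523), Lta4h (-0.13, 0.326) and Ptger2 (-0.079, 0.632) did not pass, and their WT and KO values overlapped. Alox5ap passed without WT LPS replicate 1 (-0.25, adjusted p = 0.00181) and among protein-coding genes alone (-0.21, 0.0291), but the small RNA covariate turned it to 0.075 (0.613). The platelet and stromal marker sums were also higher in KO LPS than in WT LPS, and the small RNA share was lower. Of the neutrophil markers, S100a9 was higher in KO LPS (0.76, adjusted p = 0.000936). The others tested did not pass: S100a8 (0.11), Camp (0.054), Ngp (0.61), Ltf (0.088) and Mpo (-0.74), with adjusted p from 0.569 to 0.945. The neutrophil sums of WT LPS and KO LPS overlapped. The part of these properties in the differences was not tested.

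**Figure D4:**
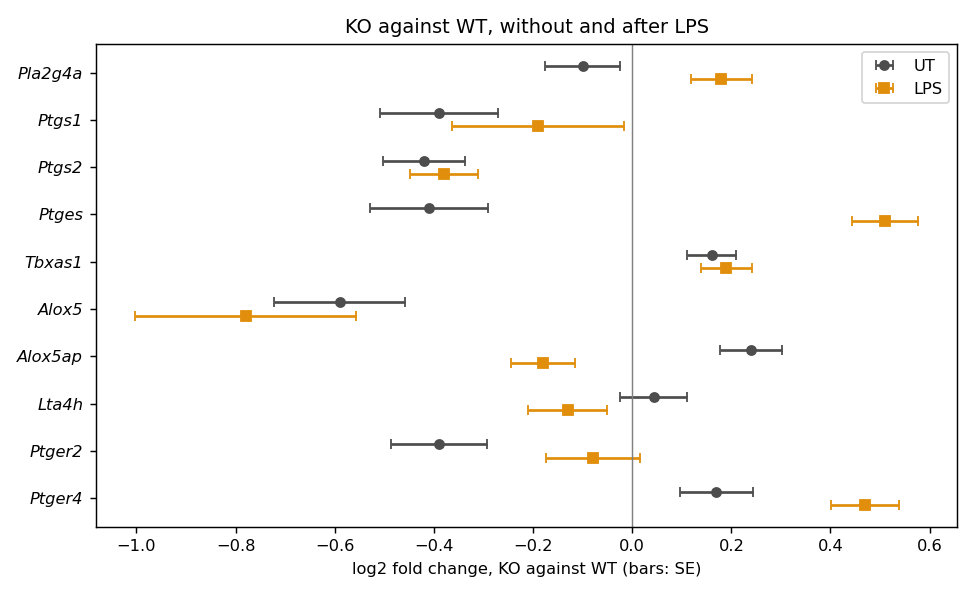
Log2 fold change of KO against WT for each of the 10 genes on the horizontal axis, with circles for UT, squares for LPS and bars of 1 SE. Ptgs2 and Alox5 lie below 0 in both treatments, Ptges lies at -0.41 in UT and at 0.51 after LPS, and Alox5ap at 0.24 in UT and at -0.18 after LPS.

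The same comparison was made without LPS. Alox5ap and Tbxas1 were higher and Alox5, Ptgs2, Ptges, Ptgs1 and Ptger2 lower in KO UT than in WT UT, 2 higher and 5 lower of 10, where 14.1% of all genes were higher and 9.69% lower. With RLE scaling 0 of the 10 were higher and 5 lower, and over all genes the balance turned, with 1724 higher and 2745 lower. The edgeR test left 0 past both criteria, and so did DESeq2, since none differed by more than 1 log2 unit, against 1.82% of all genes. At an unadjusted p below 0.05 there were 8 of the 10, and the share of all genes at that threshold was not counted. The median log2 fold change of the 10 was -0.24, beside 0.0014 over all genes. Alox5 had the largest difference, at 0.666 of the WT mean (-0.59, SE 0.132, adjusted p = 0.00213, and -0.40, -0.86 and -0.51 by batch). Ptgs2 was at 0.747 (-0.42, SE 0.0821, adjusted p = 0.000612, and -0.47, -0.46 and -0.33 by batch) and Ptger2 at 0.764 of the WT mean (-0.39, SE 0.0969, adjusted p = 0.00498, and -0.30, -0.44 and -0.43 by batch). For each of these 3 every KO library was below every WT library. Alox5ap was 1.18-fold higher (0.24, SE 0.063, adjusted p = 0.00744, and 0.26, 0.26 and 0.20 by batch), again without overlap, and with RLE scaling this was 0.17 (adjusted p = 0.0532).

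The remaining calls in UT were closer to the threshold. Ptges was lower (log2 fold change -0.41, SE 0.119, adjusted p = 0.0146), but by batch this was -0.47, -0.88 and 0.01, and the call was lost without KO UT replicate 2 (-0.24, adjusted p = 0.165), WT UT replicate 1 (0.0725) or WT UT replicate 2 (0.051), and with only the UT groups in the fit (0.0919). Ptgs1 was lower (-0.39, SE 0.119, adjusted p = 0.0209, and -0.46, -0.08 and -0.61 by batch), a call lost without WT UT replicate 1 or 3 or KO UT replicate 1 or 3 (adjusted p from 0.0602 to 0.0987). Tbxas1 was higher by 0.16 (adjusted p = 0.0204, and 0.13, 0.20 and 0.16 by batch) and lost the call without WT UT replicate 2 or 3 or any of the 3 KO UT replicates (0.0502 to 0.0982), with no filter on low counts (0.102), and with DESeq2 (0.09, adjusted p = 0.125) and RLE scaling (0.09, adjusted p = 0.189). Ptger4 (0.17, adjusted p = 0.0978), Pla2g4a (-0.1, 0.384) and Lta4h (0.043, 0.7) did not pass. The small RNA share did not overlap between WT UT and KO UT, so it and the genotype cannot be told apart within the UT libraries. With the share as a covariate, edgeR called 0 of the 10 and 894 of all genes in UT, while DESeq2 without the covariate called 6 of the 10. At an unadjusted p below 0.05 the covariate fit had 3 of the 10, again without a share over all genes. The fold changes of Ptger2 (-0.6, SE 0.266, adjusted p = 0.214) and Ptges (-0.39, SE 0.164, adjusted p = 0.182) stayed at least about as large, with wider errors. The covariate turned Ptgs2 to 0.19, Alox5 to 0.92, Ptgs1 to 0.12 and Alox5ap to -0.22.

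The third comparison asked whether the response to LPS itself differed between the genotypes. Of the 10, 1 response was shifted upward in KO (Ptges) and 1 downward (Alox5ap), where 7.32% and 9.50% of all genes were. By edgeR 0 passed both criteria and by DESeq2 also 0, with no difference over 1 log2 unit, against 2.16% of all genes. At an unadjusted p below 0.05 there were 5 of the 10, and the share of all genes at that threshold was not counted. The median of the 10 was 0.12, beside -0.0067 over all genes. Ptges rose by 0.92 log2 units more in KO than in WT (SE 0.136, adjusted p = 0.000122, and 0.97, 1.38 and 0.51 by batch), and this passed in all 21 alternative settings, from 0.75 to 1.07, and the count past both criteria was 1 without WT UT replicate 3 or without KO UT replicate 3. Alox5ap fell by 0.41 log2 units more in KO (interaction -0.41, SE 0.0899, adjusted p = 0.00277, and -0.29, -0.36 and -0.58 by batch), from a higher UT level to an LPS level that overlapped WT, but with the small RNA share as a covariate this difference was 0.3. Ptger4 (0.29, adjusted p = 0.0502) and Pla2g4a (0.28, 0.0509) lay just outside the threshold and Ptger2 (0.31, 0.13) farther out. With RLE scaling these 3 passed as well (adjusted p = 0.0122, 0.011 and 0.0465), which made 5 of 10, and DESeq2 gave the same number. Over all genes the calls also turned upward, from 1136 upward and 1475 downward to 1982 and 1138 with RLE scaling and to 2154 and 1232 with DESeq2. Ptger4 and Pla2g4a also passed without KO UT replicate 3 (0.0327 and 0.0234) or WT LPS replicate 1 (0.0404 and 0.0125), and Ptger2 without KO LPS replicate 2 (0.0486). The small RNA covariate turned Pla2g4a to -0.15 (adjusted p = 0.809). Ptgs2 (0.038, 0.858), Tbxas1 (0.03, 0.833), Ptgs1 (0.2, 0.572), Lta4h (-0.17, 0.305) and Alox5 (-0.19, 0.677) did not pass. With the small RNA share as a covariate Ptgs2 was at -0.88 (adjusted p = 0.00129) and Alox5 at -2.43 (adjusted p = 0.0324), past the threshold.

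Ratios between members within a library, chosen after their values were seen, do not depend on the scaling of the libraries. Ptges to Ptgs2 per kilobase was 0.578, 0.707 and 0.745 in WT LPS and 1.21, 1.3 and 1.21 in KO LPS, 1.84-fold higher in KO without overlap, while in UT the means were 0.247 and 0.246. Ptger4 to Ptger2 was 1.47-fold higher in KO both in UT (means of 0.944 and 1.39) and after LPS (1.45 and 2.13), without overlap in either. Alox5ap to Alox5 was 1.78-fold higher in KO UT (53.5 and 95.1), but after LPS the WT values of 138 to 326 overlapped the KO values of 248 to 319.6. Ptgs2 to Ptgs1 overlapped between genotypes in both treatments.

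**Figure D5:**
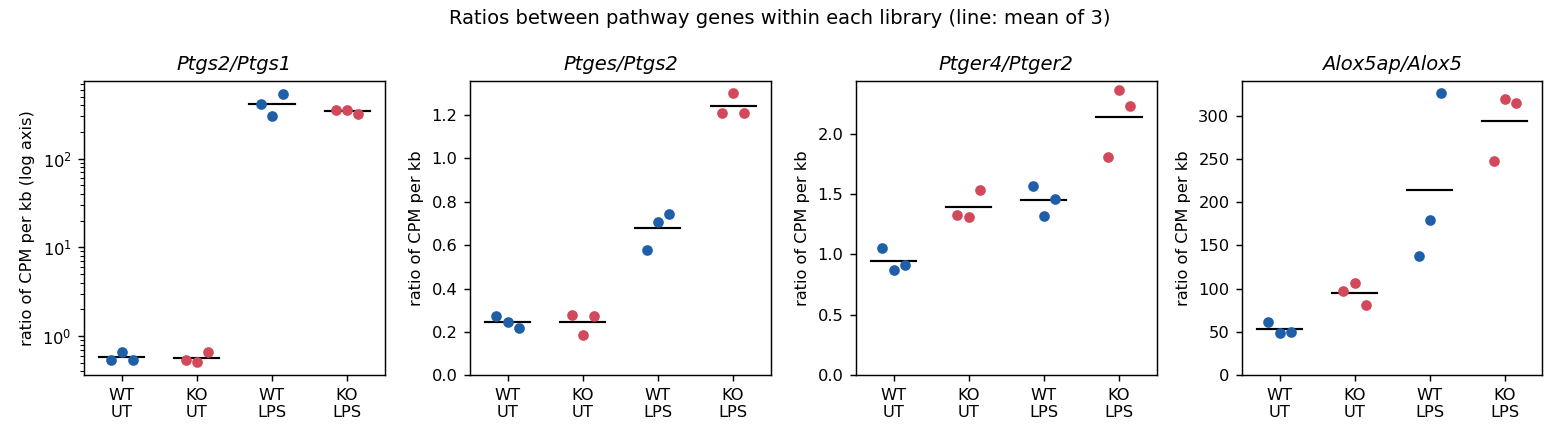
Ratios of CPM per kb between pairs of the 10 genes within each library, with a point for each of the 3 libraries of a group and a line at their mean (log axis for Ptgs2 to Ptgs1). Ptges to Ptgs2 lies at 1.21 to 1.3 in KO LPS and at 0.578 to 0.745 in WT LPS.

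Of the 44 other pathway genes, 5 were higher and 3 lower in KO LPS than in WT LPS, none of them by more than 1 log2 unit, beside 7.78% higher and 6.54% lower over all genes. With the small RNA share as a covariate 2 passed, both higher, so the 3 lower calls were lost, and with only the LPS groups in the fit 4 were higher and 1 lower. These 8 genes, named after their values were seen, were Cysltr1 (0.54), Pla2g15 (0.45), Acsl5 (0.34), Fpr2 (0.33) and Ptges3 (0.28), which were higher, and Hpgd (-0.54), Mgst3 (-0.41) and Pla2g16 (-0.28), which were lower. Hpgd was at 2.73 ± 0.206 CPM in KO LPS and at 3.98 ± 0.342 CPM in WT LPS (SD, n = 3, adjusted p = 0.0065). In UT 10 were higher and 4 lower in KO (14.1% and 9.69% over all genes), a split that was 6 higher and 8 lower with DESeq2. Pla2g4c was lower (-1.86, adjusted p = 0.02) and Dpep1, a dipeptidase that converts leukotriene D4, higher (1.99, adjusted p = 0.0139), the 2 past both criteria, at levels of 0.0799 to 0.377 CPM. The response to LPS differed at 9 of the 44, 4 upward and 5 downward in KO (8 and 3 with DESeq2, and 7.32% and 9.50% over all genes), with log2 differences from -0.93 for Mgst3 to 0.63 for Fpr2, also named after their values were seen. With the covariate 5 of the 44 passed in UT and 2 in the response.

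Over the 12 libraries and the 15522 other genes tested, the genes most like Ptgs2 by Pearson's r of log2 CPM were Slc28a2 (0.9997), a nucleoside transporter, Cd274 (0.9996), which encodes PD-L1, and March5 (0.9996), a mitochondrial ubiquitin ligase. Slc28a2 had means of 36.1 and 28 CPM in WT and KO UT and of 2094 and 1753 CPM in WT and KO LPS. The genes most like Alox5 were Cd24a (0.9972), a surface sialoglycoprotein, Bbs7 (0.9951), a BBSome subunit, and Crebrf (0.9939), with means for Cd24a of 11.1, 8.81, 3.58 and 2.62 CPM in the same order of groups. The points share the LPS contrast and the library scaling, so these values are a description.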

How the data were processed

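Total RNA of 12 BMDM libraries was prepared with the TruSeq Stranded Total RNA Globin kit. Per the labels, reads were checked with FastQC 0.11.9 and aligned to GRCm38 with HISAT2 2.1.0, with SAMtools 1.17, and the authors deposited raw counts per gene from featureCounts 2.0.0, with no normalization. Of 48526 gene identifiers, 48144 matched GENCODE M21, and the 382 others held 0.122% of counts.

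Genes were kept by filterByExpr (minimum count 10, minimum total 15), which left 15523 genes with 99.96% of the counts. All 4 groups were fitted in one edgeR 4.0.16 quasi-likelihood model with TMM scaling (R 4.3.3, limma 3.58.1), and p-values were adjusted by Benjamini-Hochberg over all genes tested. The SE is the absolute log2 fold change divided by the square root of F. The same steps were run on simulated counts with the same spread for all genes, no response to LPS and changes in KO LPS alone. That setting is simpler than these libraries, so it checks the code and not the error rate in these data. The alternatives were DESeq2 1.42.0, other scalings, filters and gene sets, a small RNA covariate, the batch as a replicate block, and each of the 12 libraries left out in turn. Same-numbered libraries share a batch in the labels, which pairs them, although over 18 pairs the correlation of their deviations was only -0.0631 to 0.0373. Libraries of a group differed by 3.74 to 41.8 times the sampling variance of their counts, so none was a copy, with the highest value between WT LPS replicates 1 and 3. Nothing in the labels says that replicates came from separate animals, so p-values measure the spread between these libraries, which may be technical, and depth limits only the counting error.

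The 10 genes and the lists were chosen with earlier results of these data known. All 10 are named in each comparison, and other pathway genes where they passed an adjusted p below 0.05 with an absolute log2 fold change above 1 in it. Outside this rule, Ltb4r1 is named as a receptor that did not pass with LPS, and a further few for KO against WT were named after their values were seen. For Ptgs2 and Alox5 the 3 most alike genes are named. Promoter windows are from RefSeq (GRCm38.p6) and matched 9 of the 10 genes, all but Alox5ap. Ratios and figures were made with Python 3.11.15 and matplotlib 3.10.9.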

Additional observations from a re-analysis of the deposited data

Results flagged for a closer look

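For 2 of the 10 genes the response to LPS differed between KO and WT by the test of the difference itself. Ptges rose more in KO, by 0.92 log2 units (adjusted p = 0.000122, edgeR). Its KO libraries were above the WT libraries after LPS in 3 of 3 batches and below them in UT in 2 of 3. Alox5ap fell more in KO, with a difference of -0.41 log2 units (adjusted p = 0.00277, edgeR), seen in 3 of 3 batches. Its value was 0.3 with the small RNA share as a covariate, and the part of that share was not otherwise tested. Groups of 3 libraries are too small for the test used here for a single value that stands apart from its group, and each library was instead left out in turn.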

How the results depend on the processing

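Of the changes of the 10 genes and Tnf over all settings and comparisons, 1127 kept their direction and side of the threshold, 21 changed sign, and of those that kept their direction 29 lost the call and 22 gained it. With the replicate block no call of a member or of Tnf changed, and the paired fit gave 1753 calls over all genes for KO against WT after LPS, 3309 in UT and 2174 for the difference in response, against 2223, 3700 and 2611 without it. With the small RNA covariate, all genes went to 7106 calls for LPS in KO, 1376 for KO against WT after LPS, 894 in UT and 386 for the difference in response, members to 0 in UT, members past both criteria to 1 after LPS and 1 in the response, and other pathway genes to 2 after LPS, 5 in UT and 2 in the response. It changed the sign of Alox5ap (0.075) and Ptger2 (0.032) after LPS, of Ptgs1 (0.12), Ptgs2 (0.19), Pla2g4a (0.18), Alox5 (0.92) and Alox5ap (-0.22) in UT, and of Ptgs1 (-0.56), Ptgs2 (-0.88), Pla2g4a (-0.15), Alox5ap (0.3) and Tnf (0.082) in the response. With only the compared groups in the fit, 3 members and 5 other pathway genes differed after LPS. The members' differences in response numbered 5 with DESeq2 and with RLE scaling and 4 with upper-quartile scaling. Lta4h in UT was -0.03 with DESeq2 and RLE scaling, and in the response Ptgs2 was -0.0036 and Tbxas1 -0.013 among protein-coding genes. With 1 library left out, Lta4h in UT ranged from -0.0024 (without KO UT replicate 2) to 0.091, Ptger2 after LPS from -0.17 to 0.0092 (without KO LPS replicate 2), and in the response Ptgs1 from -0.007 and Ptgs2 from -0.038 (both without WT LPS replicate 3) to 0.37 and 0.15, and Alox5 from -0.41 to 0.02 (without WT LPS replicate 1). Leaving out 1 library at a time gave 3 to 6 members and 1405 to 3228 genes after LPS, 9 to 15 other pathway genes in UT, and in the response 2 to 4 members, 0 to 1 past both criteria and 5 to 10 other pathway genes. The lowest counts came without KO LPS replicate 2 (members), KO LPS replicate 3 (all genes), WT UT replicate 2 (other genes in UT) and KO UT replicate 1 or KO LPS replicate 3 (other genes in the response). Of all calls, 59.4% were higher in KO UT against 38.6% with RLE scaling, and 43.5% of response differences were upward against 63.5%. Under upper-quartile scaling the median over all genes moved by -0.18 for LPS in both genotypes. The longest transcript changed 12 ranks. The causes were not tested.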
